A study of Mus musculus with 12 samples.

Results

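Described here are 8 mouse genes, chosen by gene symbol from 55573 genes. Irgm1, Irgm2, Igtp, Iigp1, Ifi47, Tgtp1 and Tgtp2 encode immunity-related GTPases. Olfr56 is not such a gene and is listed with them because it spans Ifi47. RNA came from 12 untreated cultures of embryonic mouse fibroblasts that SV40 large T antigen had immortalised, taken 24 h after plating. The Fadd-/- Mlkl-/- line carried either an empty vector (the Fadd/Mlkl knockouts) or a vector that put FADD back. The Casp8-/- Mlkl-/- line carried either an empty vector (the Casp8/Mlkl knockouts) or a vector that put caspase-8 back. Each of the 4 groups had 3 libraries from separate cultures, and all 4 groups lack Mlkl. The returned gene is ectopic, each line stands for its own genotype, and no fibroblast with both endogenous genes was analysed here. Fewer producing cells and less RNA per cell cannot be told apart in these bulk libraries.

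FADD links death receptors to caspase-8, and the pair also restrains necroptosis, the lytic death carried out by MLKL. Immunity-related GTPases are mouse GTPases made after interferon exposure that load onto the vacuoles of intracellular parasites and bacteria and damage them. Irgm1, Irgm2 and Igtp (also named Irgm3) encode the regulatory members, which sit on host membranes and keep the effector members inactive there. Iigp1 (Irga6), Ifi47 (Irgd), Tgtp1 and Tgtp2 (Irgb6 copies) encode effectors. Olfr56 is named as an olfactory receptor gene, and its annotated span holds the whole of Ifi47 on the same strand, so both are read together.

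In the GENCODE M21 annotation of mm10, all of these genes but Iigp1 lie on chromosome 11. Irgm1 (ENSMUSG00000046879.7, chr11:48861968-48871683, minus strand), Tgtp1 (ENSMUSG00000078922.9, chr11:48985327-48994172, minus), Tgtp2 (ENSMUSG00000078921.3, chr11:49057194-49064206, minus), Ifi47 (ENSMUSG00000078920.3, chr11:49076587-49096974, plus) and Olfr56 (ENSMUSG00000040328.15, chr11:48978889-49135387, plus) fall within 273420 bp. Igtp (ENSMUSG00000078853.8, chr11:58199556-58207591, plus) and Irgm2 (ENSMUSG00000069874.7, chr11:58199618-58222782, plus) overlap each other farther along the chromosome. Ifi47 and Olfr56 share 111 exonic bp, and Irgm2 and Igtp share 162 exonic bp. Tgtp1 and Tgtp2 are near copies: 70.3% of the 100-base stretches in Tgtp1 transcripts also occur in Tgtp2, and 76.8% of those in Tgtp2 occur in Tgtp1. How the authors' counting divided reads between these overlapping or copied genes is uncertain, so the Ifi47 and Tgtp pairs were also tested as sums.

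The promoter stretches are shown because 5 of the genes carry the letter patterns through which interferon-activated factors are known to act. RefSeq windows for GRCm38.p6, from 250 bases before to 50 bases after the RefSeq start, were found for 7 of the 8 genes, all but Iigp1. The windows of Irgm1, Irgm2, Tgtp1 and Olfr56 lie inside the GENCODE spans given above and do not reach the GENCODE starts. They were searched on both strands for GAAANNGAAA, the core of the interferon-stimulated response element (ISRE), and for TTCNNNGAA, the gamma-activated site (GAS). Capitals mark the matches, and all are written 5′ to 3′ along the gene's strand.
Irgm1, chr11:48871421-48871492, minus strand: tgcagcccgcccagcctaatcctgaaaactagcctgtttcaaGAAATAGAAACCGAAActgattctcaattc
Irgm2, chr11:58214871-58214950, plus strand: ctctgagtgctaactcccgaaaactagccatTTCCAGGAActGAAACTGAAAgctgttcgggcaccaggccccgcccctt
Igtp, chr11:58199480-58199555, plus strand: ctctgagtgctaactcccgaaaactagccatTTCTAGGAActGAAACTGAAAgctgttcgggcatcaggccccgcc
Tgtp1, chr11:48992286-48992365, minus strand: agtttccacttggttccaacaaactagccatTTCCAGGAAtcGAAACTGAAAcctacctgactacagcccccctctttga
Tgtp2, chr11:49064245-49064324, minus strand: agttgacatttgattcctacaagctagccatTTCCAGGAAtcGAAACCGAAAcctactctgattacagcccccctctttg

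Irgm2, Igtp, Tgtp1 and Tgtp2 each held a GAS match followed, after 2 bases, by an ISRE match. The ISRE match began 64 bases before the RefSeq start in Irgm2, 34 in Igtp, 77 in Tgtp1 and 70 in Tgtp2. Irgm1 held 2 overlapping ISRE matches, the first of them 30 bases before the start, and no GAS match. The Irgm2 and Igtp stretches were identical at 97.4% of 76 positions, and the Tgtp1 and Tgtp2 stretches at 72.5% of their 80 positions. Among 32851 mouse promoter windows of the same length, 3.44% held the ISRE letters, 8.3% the GAS letters and 0.454% both. Neither pattern occurred in the windows of Ifi47 and Olfr56, which says only that these letters are not in those 300 bases. The Olfr56 window (chr11:49133923-49134222) lies near the far end of its GENCODE span, so the GENCODE start of that gene was not searched.

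The libraries held 33918359 to 59388559 expected counts, and 16396 genes, all 8 listed genes among them, passed the low-count filter. The targeted genes followed the labels: without FADD, Fadd fell by 7.84 on the log2 scale (SE 0.438, adjusted p = 1.32e-05), and without caspase-8, Casp8 fell by 3.63 (SE 0.325, adjusted p = 0.00371). Casp8 still had 3.32 ± 0.201 TPM (transcript level scaled for length and library size) in the Casp8/Mlkl knockouts, against 58.6 ± 26.1 TPM with caspase-8, where it was also above the 11.7 ± 1.44 TPM of the Fadd/Mlkl knockouts and the 14.7 ± 2.15 TPM with FADD (SD, n = 3 each). Put-back Fadd, at 3.76 ± 0.627 TPM, was likewise above the 1.73 ± 0.345 TPM of the Casp8/Mlkl knockouts and the 1.60 ± 0.120 TPM with caspase-8. Between the put-back groups its log2 difference was 1.29 (SE 0.312, adjusted p = 0.0351). Of 10 fibroblast markers, Vim reached at least 431.57 TPM and S100a4 at least 173.97 TPM in each library. Thy1, by contrast, had no counts in 11 of 12 libraries, and Dcn stayed at or below 0.57 TPM. Others varied widely between libraries, Col1a2 over 0.07 to 885.67 TPM, Col1a1 over 24.01 to 696.17, Fn1 over 14.68 to 423.42 and Pdgfra over 0.6 to 8.35. The 10 together ranged over 1136.2 to 1633.37 TPM in the Fadd/Mlkl knockouts, against 1702.94 to 1869.57 TPM with FADD, and over 2540.07 to 3330.16 TPM in the Casp8/Mlkl knockouts, against 2486.8 to 3687.64 TPM with caspase-8. The 5 epithelial markers together ranged over 0.38 to 2.05 TPM in the Fadd/Mlkl knockouts, against 2.68 to 15.83 TPM with FADD, and over 2.33 to 6.55 TPM in the Casp8/Mlkl knockouts, against 1.68 to 2.33 TPM with caspase-8. Both sums were thus lower, without overlap, in the Fadd/Mlkl knockouts than with FADD, whereas the 8 listed genes were higher in those knockouts. The part of these sums in the results for the listed genes was not tested. The epithelial sum was mostly Krt19, which ranged over 0.37 to 15.63 TPM across the 12 libraries. Epcam, Cdh1, Krt8 and Krt18 each stayed at or below 0.18 TPM. The 8 leukocyte markers together reached at most 0.65 TPM in the Fadd/Mlkl knockouts, 1.47 TPM with FADD, 1.07 TPM in the Casp8/Mlkl knockouts and 0.83 TPM with caspase-8. Fadd/Mlkl knockout replicate 1 stood apart, with 81.38% of its counts in protein-coding genes against 85.02% to 88.85% elsewhere and 0.1078% in rRNA genes against at most 0.0227%. The same library had the highest level of each of the 8 listed genes, and the part of its make-up in those levels was not tested.

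All 8 genes were highest in the Fadd/Mlkl knockouts, and the summed level of the 8 was 156.5 ± 86.52 TPM there, against 40.98 ± 20.21 TPM with FADD put back. It was 42.19 ± 23.77 TPM in the Casp8/Mlkl knockouts and 20.9 ± 1.651 TPM with caspase-8 put back (SD, n = 3 each). For each gene, the Fadd/Mlkl knockout libraries lay above every library of the next highest group. The FADD put-back and Casp8/Mlkl knockout groups came next, in either order, and overlapped for all 8 genes. The caspase-8 put-back group was the lowest for all 8, and in CPM (counts scaled for library size) it lay apart from its neighbour in the order for Iigp1, Ifi47 and Olfr56.

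**Figure D1:**
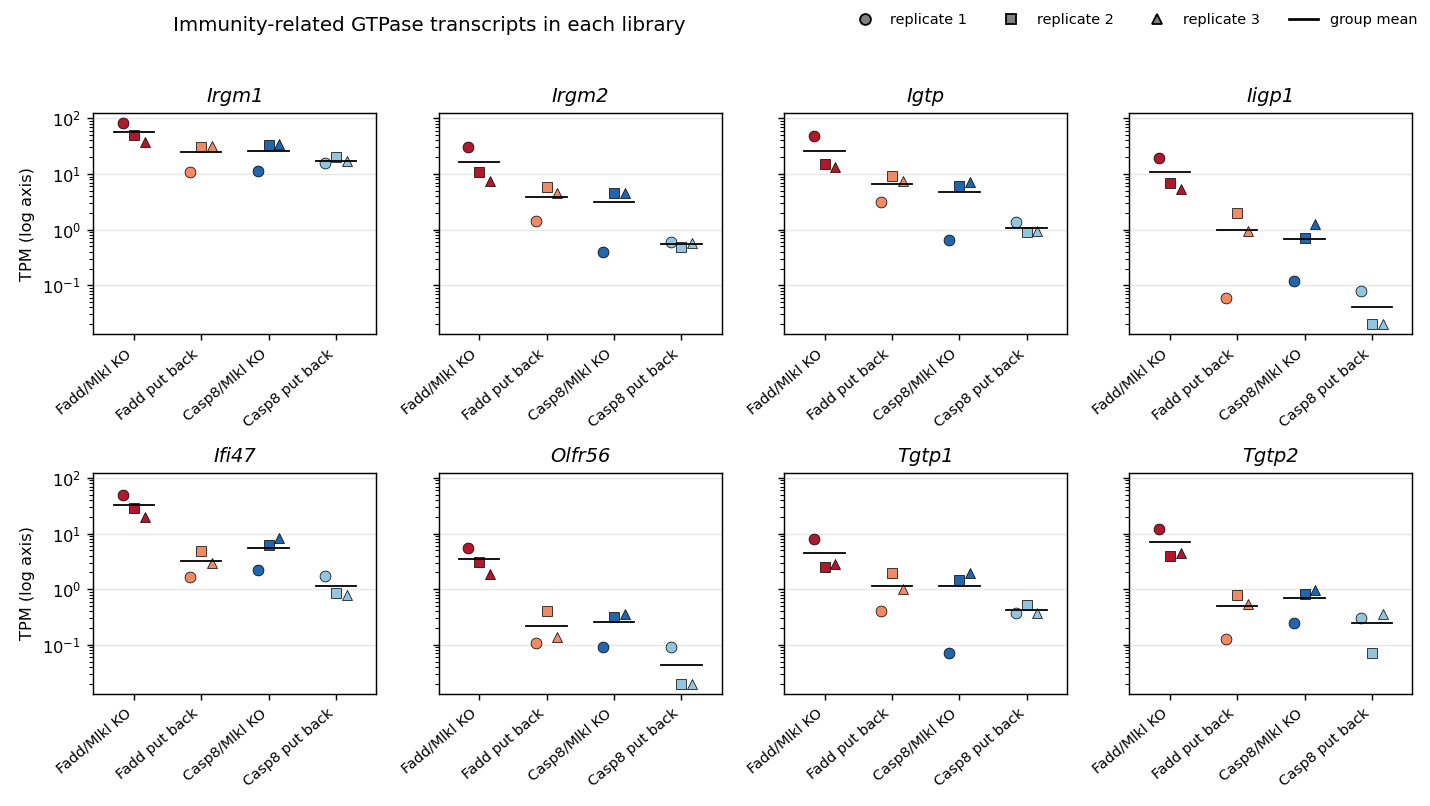
TPM of each of the 8 genes (log axis) in the 12 libraries, with a bar at the mean of each group and a marker shape for each replicate. The Fadd/Mlkl knockout libraries lie above the FADD put-back libraries for every gene, and replicate 1 is low in both the FADD put-back and the Casp8/Mlkl knockout groups.

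All 8 log2 changes without FADD were above 0, and Ifi47 and Olfr56 were the members called higher. Ifi47 had 49.28, 29.21 and 19.97 TPM in the Fadd/Mlkl knockouts, against 1.68, 4.88 and 2.92 TPM with FADD. Its lowest knockout value was thus well above its highest value with FADD. Ifi47 was 11.2-fold higher without FADD (log2 change 3.48, SE 0.579, adjusted p = 0.0114). Olfr56 had 5.57, 3.03 and 1.87 TPM in the Fadd/Mlkl knockouts, against 0.11, 0.41 and 0.14 TPM with FADD. Its groups did not overlap either, and it was 17.4-fold higher (log2 change 4.12, SE 0.785, adjusted p = 0.0265). The Olfr56 level was 0.0936 to 0.113 of the Ifi47 level in the Fadd/Mlkl knockouts, against 0.0479 to 0.084 with FADD, both in TPM. With the reads of both genes summed, the log2 change of Ifi47 with Olfr56 was 3.56 (adjusted p = 0.0117).

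The regulatory members were also higher in each knockout library than in any library with FADD, but none passed the test. Irgm1 had 81.32, 49.99 and 37.17 TPM in the Fadd/Mlkl knockouts, against 11.07, 30.91 and 31.24 TPM with FADD (log2 change 1.32, SE 0.485, adjusted p = 0.317). Irgm2 had 29.99, 10.89 and 7.59 TPM in the knockouts, against 1.43, 5.84 and 4.50 TPM with FADD (log2 change 2.18, SE 0.808, adjusted p = 0.325). Igtp had 49.03, 15.33 and 13.17 TPM in the knockouts, against 3.13, 9.25 and 7.53 TPM with FADD (log2 change 2.11, SE 0.773, adjusted p = 0.314). In all 3 genes replicate 1 was the highest knockout library and the lowest library with FADD, so the gap between groups was narrow beside the spread inside them.

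Among the other effectors, Iigp1 (ENSMUSG00000054072.12, chr18:60376027-60392634, plus strand) was the member outside chromosome 11. Iigp1 had 19.60, 6.90 and 5.48 TPM in the Fadd/Mlkl knockouts, against 0.06, 2.01 and 0.94 TPM with FADD (log2 change 3.53, SE 1.06, adjusted p = 0.182). Tgtp1 had 7.91, 2.49 and 2.87 TPM in the knockouts, against 0.41, 1.99 and 1.02 TPM with FADD (log2 change 2.19, SE 0.919, adjusted p = 0.424). Tgtp2 had 12.23, 4.01 and 4.49 TPM in the knockouts, against 0.13, 0.80 and 0.54 TPM with FADD (log2 change 3.27, SE 0.892, adjusted p = 0.131). The groups did not overlap for any of these, and the Tgtp1 gap was narrower than that of its near copy Tgtp2.

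By count, 2 of the 8 genes were called higher without FADD, against a background of 0.287% of the genes tested. Those 2, Ifi47 and Olfr56, overlap on the chromosome and gave 1 call when summed. For 8 of 8 genes the groups did not overlap, against 7.79% of genes. The members are not separate evidence, because they moved together from library to library. Their median log2 change was 2.73, beside 0.0037 over all genes tested. With replicate numbers as a block within each line, neither gene was called (Ifi47 adjusted p = 0.0614, Olfr56 adjusted p = 0.0674). Leaving out FADD put-back replicate 3 also left 0 calls (Ifi47 adjusted p = 0.0549), and leaving out Fadd/Mlkl knockout replicate 1, knockout replicate 2 or FADD put-back replicate 1 left Ifi47 alone. Over all genes, in either direction, these fits without 1 library gave 125 of 16923 to 181 of 16829. The fit of all 12 libraries gave 250 of 16396, and the block within each line 444 of 16396. DESeq2 called 4 genes higher, adding Iigp1 and Tgtp2, against a background of 1.37%. Without both replicate 1 libraries of the line, the log2 change of Ifi47 was 2.68 (adjusted p = 0.112), that of Olfr56 3.21 (adjusted p = 0.228), that of Irgm1 0.55 and that of Igtp 0.84.

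**Figure D2:**
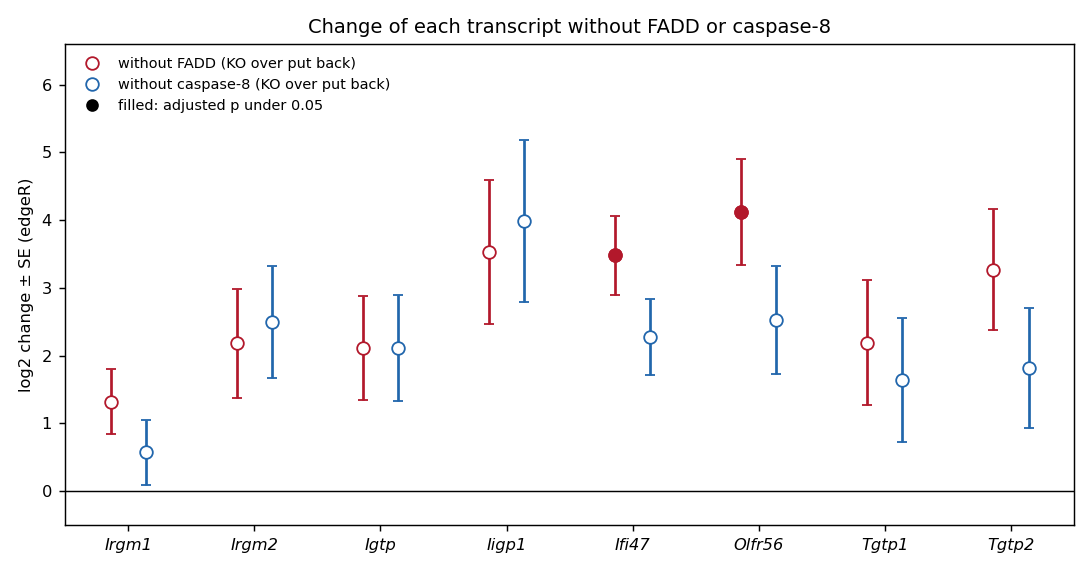
log2 change of each gene, knockout over put back, with its standard error from edgeR, for the Fadd line (red) and the Casp8 line (blue). Filled points are the calls, Ifi47 and Olfr56 without FADD, and all points lie above 0.

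Without caspase-8, no member passed the test (0 of 8, against a background of 0.00% called higher by edgeR), although all 8 log2 changes were above 0. The unadjusted p was under 0.05 for 5 genes, Irgm2, Igtp, Iigp1, Ifi47 and Olfr56, against 5.67% of all genes in either direction. DESeq2 called 2 of the 8, Iigp1 and Ifi47, against a background of 0.809%. Those were also the members whose groups did not overlap in CPM (2 of 8, against 5.78% of genes). Since no member overlapped without FADD, the same 2 of 8 were apart in both lines, against 1.04% of genes.

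Ifi47 had 2.20, 6.28 and 8.29 TPM in the Casp8/Mlkl knockouts, against 1.76, 0.86 and 0.79 TPM with caspase-8 (log2 change 2.28, SE 0.558, adjusted p = 0.410). Iigp1 had 0.12, 0.70 and 1.24 TPM in the knockouts, against 0.08, 0.02 and 0.02 TPM with caspase-8 (log2 change 3.99, SE 1.20, adjusted p = 0.608). For both genes knockout replicate 1 lay just above the put-back libraries, with replicates 2 and 3 well above them. Olfr56 had 0.09, 0.32 and 0.36 TPM in the knockouts, against 0.09, 0.02 and 0.02 TPM with caspase-8 (log2 change 2.53, SE 0.798, adjusted p = 0.656), where knockout replicate 1 and put-back replicate 1 had the same TPM.

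Irgm2 had 0.40, 4.50 and 4.50 TPM in the Casp8/Mlkl knockouts, against 0.59, 0.49 and 0.57 TPM with caspase-8 (log2 change 2.50, SE 0.831, adjusted p = 0.666). Igtp had 0.64, 6.14 and 7.18 TPM in the knockouts, against 1.35, 0.90 and 0.94 TPM with caspase-8 (log2 change 2.12, SE 0.786, adjusted p = 0.733). In both, replicates 2 and 3 of the knockout were several times the put-back level while replicate 1 was below it. Irgm1, the most abundant member, had 11.21, 32.50 and 34.38 TPM in the knockouts, against 15.42, 19.92 and 16.86 TPM with caspase-8 (log2 change 0.57, SE 0.479, adjusted p = 0.982). Tgtp1 had 0.07, 1.44 and 1.97 TPM in the knockouts, against 0.38, 0.53 and 0.37 TPM with caspase-8 (log2 change 1.64, SE 0.917, adjusted p = 0.927). Tgtp2 had 0.25, 0.83 and 0.97 TPM in the knockouts, against 0.30, 0.07 and 0.36 TPM with caspase-8 (log2 change 1.82, SE 0.889, adjusted p = 0.893). The same knockout library, replicate 1, lay within or below the put-back range for Irgm1, Tgtp1 and Tgtp2 too.

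Casp8/Mlkl knockout replicate 1 was below its group mean for all 8 genes, by a median of 2.02 on the log2 CPM scale. Without both replicate 1 libraries of the Casp8 line, the log2 change of Ifi47 was 3.06 (adjusted p = 0.0565), that of Iigp1 5.32 (adjusted p = 0.141) and that of Olfr56 3.98 (adjusted p = 0.0826). Still no member was called, against 111 of 16864 genes in either direction. With replicate numbers as a block within each line there were also 0 calls, against 6 of 16396 genes (Ifi47 adjusted p = 0.341, Iigp1 adjusted p = 0.446).

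**Figure D3:**
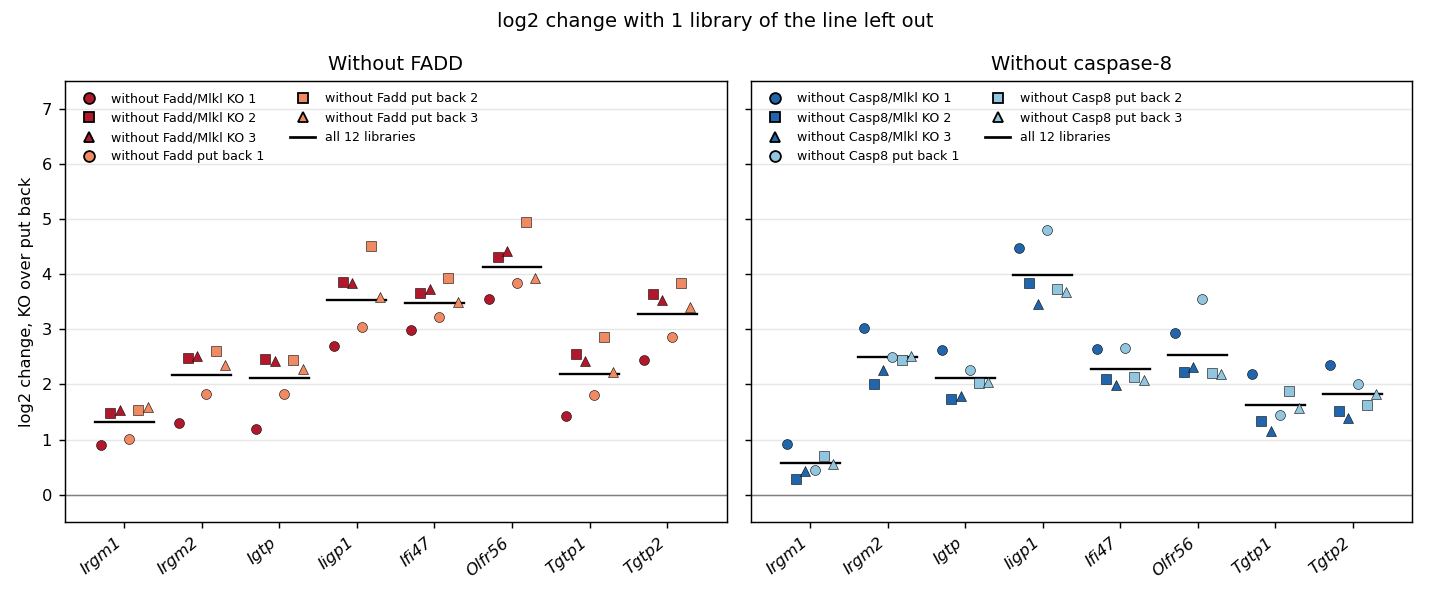
log2 change of each gene, knockout over put back, with each library of the line left out in turn (points) and with all 12 libraries (bars). Every value stays above 0, and the lowest value of each gene without FADD is the one without knockout replicate 1.

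The change without FADD was not shown to differ from the change without caspase-8. No member passed the test of the difference between these changes (0 of 8 by edgeR, with backgrounds of 0.0549% higher and 0.787% lower), none had an unadjusted p under 0.05, against 7.40% of all genes, and limma-voom called none. DESeq2 also called 0, with backgrounds of 0.276% higher and 2.30% lower. The difference in log2 change was 1.20 for Ifi47 (95% interval -0.57 to 2.97), 1.59 for Olfr56 (-0.87 to 4.06) and 1.45 for Tgtp2 (-1.32 to 4.22). It was 0.75 for Irgm1 (-0.75 to 2.25) and 0.56 for Tgtp1 (-2.30 to 3.41). For Igtp the difference was close to 0, with an interval of -2.43 to 2.42, for Irgm2 it was -0.32 (-2.87 to 2.23) and for Iigp1 -0.46 (-3.97 to 3.05). These intervals are wide enough to hold a several-fold difference either way for most members, and the sign for Irgm1, Irgm2, Igtp, Iigp1 and Tgtp1 changed under other settings.

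Between the knockouts, 4 of the 8 genes were higher in the Fadd/Mlkl than in the Casp8/Mlkl cells, against a background of 3.46%. Ifi47 was 6.86-fold higher (log2 difference 2.78, SE 0.561, adjusted p = 0.0104) and Olfr56 15.7-fold (3.98, SE 0.780, adjusted p = 0.00882). Tgtp2 was 13.0-fold higher (3.70, SE 0.913, adjusted p = 0.0253) and Iigp1 18.4-fold (4.20, SE 1.09, adjusted p = 0.0328). For Igtp the log2 difference was 2.71 (SE 0.792, adjusted p = 0.0529). For 8 of 8 genes every Fadd/Mlkl library lay above every Casp8/Mlkl library, against 13.0% of genes. The genotype and the line of origin cannot be told apart here. Leaving out Fadd/Mlkl knockout replicate 1, Casp8/Mlkl knockout replicate 2 or Casp8/Mlkl knockout replicate 3 left 2 calls, Ifi47 and Olfr56, and DESeq2 called 7, against 6.40%. Over all genes, in either direction, those edgeR fits called 1074 of 16753, 829 of 16890 and 866 of 16767. The edgeR fit of all 12 libraries called 1718 of 16396.

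Between the put-back groups, all 8 log2 differences were again above 0. Iigp1 was the member called higher with FADD put back than with caspase-8 put back (1 of 8, against 2.93%), by 4.66 on the log2 scale (SE 1.21, adjusted p = 0.0449). Its libraries nevertheless overlapped, because FADD put-back replicate 1 (0.06 TPM) lay below caspase-8 put-back replicate 1 (0.08 TPM). Igtp (2.71, SE 0.801, adjusted p = 0.0722) and Irgm2 (2.91, SE 0.843, adjusted p = 0.0687) had values in the same direction and did not overlap in CPM. In all, 4 of 8 members did not overlap, against 12.5% of genes. The block over replicate numbers gave 0 calls (Iigp1 adjusted p = 0.0835), and DESeq2 gave 6, against 6.17%. Leaving out 1 library left 0 calls without Fadd/Mlkl knockout replicate 2 or 3, FADD put-back replicate 2 or 3, Casp8/Mlkl knockout replicate 2 or 3, or caspase-8 put-back replicate 2 or 3. It left 2 calls without Fadd/Mlkl knockout replicate 1 or caspase-8 put-back replicate 1, and 3 without Casp8/Mlkl knockout replicate 1. Over all genes, in either direction, the leave-out fits with 0 calls gave 301 of 16945 to 889 of 16920. Those with 2 or 3 calls gave 1165 of 16753 to 2251 of 16907, and the fit of all 12 libraries 1039 of 16396.

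In the make-up of the summed level of the listed genes, which was not tested, the groups of each line stood apart for Irgm1 and Ifi47. Not all groups or genes did. Irgm1 took 55.1% to 64% with FADD and 58.4% to 74.8% in the Casp8/Mlkl knockouts, ranges that overlap. Within the Fadd line the shares of Irgm2, Igtp and Tgtp1 overlapped. Irgm1 was the most abundant member in each of the 12 libraries. It made up 37.7 ± 5.03% of the summed TPM in the Fadd/Mlkl knockouts, against 60.2 ± 4.57% with FADD, and 65 ± 8.71% in the Casp8/Mlkl knockouts, against 83 ± 5.23% with caspase-8 (SD, n = 3 each). Ifi47 made up 21.6 ± 2.32% in the Fadd/Mlkl knockouts, against 8 ± 1.78% with FADD, and 13.6 ± 1.46% in the Casp8/Mlkl knockouts, against 5.52 ± 2.86% with caspase-8. Neither gene's shares overlapped between the groups of a line. The share of Tgtp1 was nearly flat by comparison, at 2.75 ± 0.611% in the Fadd/Mlkl knockouts and 2.64 ± 0.794% with FADD.

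**Figure D4:**
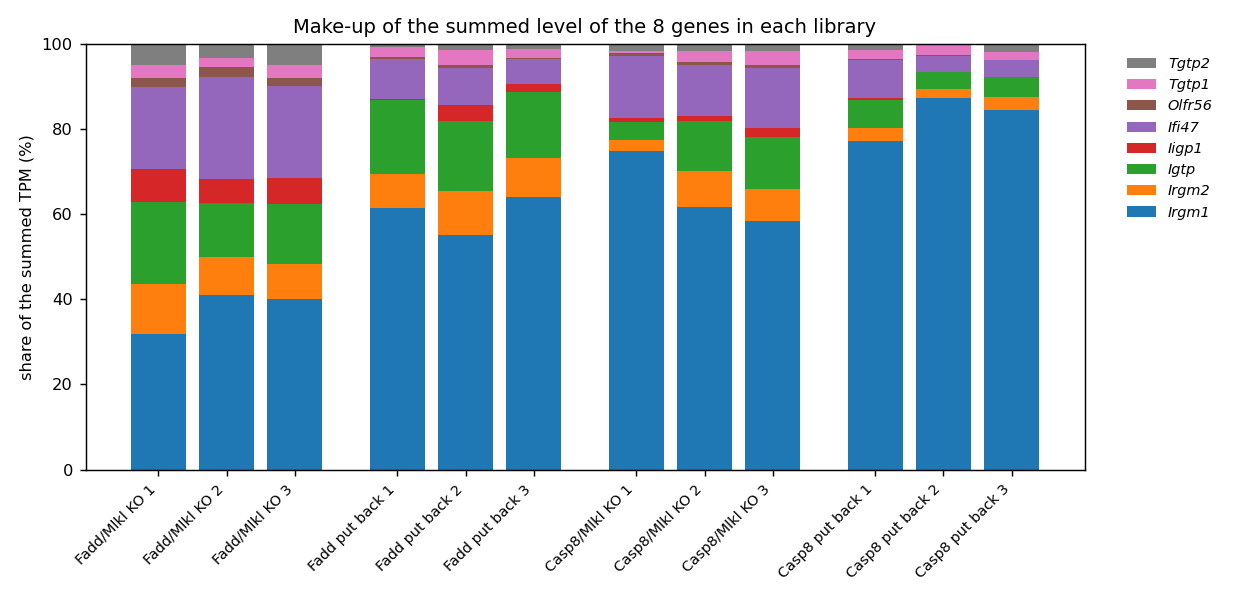
Share of the summed TPM of the 8 genes taken by each gene (percent, stacked to 100) in the 12 libraries. Irgm1 takes 31.9% to 41% in the Fadd/Mlkl knockouts and 77.2% to 87.3% with caspase-8 put back, and the Ifi47 share runs the other way.

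Ifi47 and Irgm1, the members with the shares above, can also be set against each other within each library. Ifi47 stood at 0.606, 0.584 and 0.537 of the Irgm1 TPM in the Fadd/Mlkl knockouts, against 0.152, 0.158 and 0.0935 with FADD. It stood at 0.196, 0.193 and 0.241 in the Casp8/Mlkl knockouts, against 0.114, 0.0432 and 0.0469 with caspase-8. Fadd/Mlkl knockout replicate 1 had the highest levels of both genes and a ratio close to that of replicate 2. The level of Igtp over that of the overlapping Irgm2 was 1.41 to 1.74 in the Fadd/Mlkl knockouts and 1.58 to 2.19 with FADD, ranges that overlap. It was 1.36 to 1.6 in the Casp8/Mlkl knockouts and 1.65 to 2.29 with caspase-8, ranges that do not.

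The near copies Tgtp1 and Tgtp2 stood in opposite order in TPM in the groups of the Fadd line. In expected counts Tgtp2 was above Tgtp1 in Fadd/Mlkl knockout replicate 1 alone (2229 against 2140). It was below in replicates 2 (601 against 624) and 3 (574 against 596), so the order in TPM depends on its scaling for length. Tgtp2 stood at 1.55, 1.61 and 1.56 of the Tgtp1 TPM in the Fadd/Mlkl knockouts, against 0.317, 0.402 and 0.529 with FADD. In the Casp8/Mlkl knockouts the ratio was 3.57, 0.576 and 0.492, the first of these from 8 Tgtp2 counts and 13.87 Tgtp1 counts, against 0.789, 0.132 and 0.973 with caspase-8. Since most of their transcript sequence is shared, the division of reads between the copies is uncertain, and with the copies summed the log2 change of Tgtp1 with Tgtp2 was 2.64 without FADD (adjusted p = 0.277).

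Within groups, the members went up and down together. Across the 28 pairs of genes, Pearson's r of log2 CPM over the 12 libraries was 0.844 to 0.995 with a median of 0.944. After the group means were taken out it was 0.673 to 0.988 with a median of 0.907. These values describe libraries that share their depth and, in part, overlapping genes. Fadd/Mlkl knockout replicate 1 was above its group mean for 8 of 8 genes and replicates 2 and 3 for none. FADD put-back replicate 1 was below its group mean for 8 of 8, as was Casp8/Mlkl knockout replicate 1. The caspase-8 put-back libraries had the median deviations nearest to the group mean, at 0.35, -0.22 and -0.13. Single genes still deviated more there, Olfr56 by 1.12 and Iigp1 by 0.97 in replicate 1.

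The genes most like the members were taken as the 10 protein-coding genes, of 12804 compared, with the highest r to the members' mean log2 CPM profile over the 12 libraries, with Olfr56 left out of the mean because it spans Ifi47. Gbp10, a guanylate-binding protein gene, came first (r = 0.995), followed by Rsad2, which encodes the antiviral enzyme viperin (0.985), and Cmpk2, its neighbour and a mitochondrial nucleotide kinase (0.984). Ddx58, the RNA sensor RIG-I (0.983), Trim21, a cytosolic antibody receptor and ubiquitin ligase (0.981), Ifit3b (0.980), Nlrc5, the activator of MHC class I genes (0.979), Phf11d (0.978), Tnfsf10, the death ligand TRAIL (0.977), and Usp18, which removes ISG15 and damps interferon receptor signalling (0.977), made up the rest. Within the 6 libraries of the Fadd line alone the r of these genes ran from 0.958 to 0.996, and within the Casp8 line from 0.938 to 0.995. These libraries are among the 12 by which the genes were chosen, so the values within lines are not separate evidence.

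Of 12 further members and relatives of the family, 11 were tested. Without FADD, 10 of these had a log2 change above 0. Called higher, against 0.287% of all genes, was 1 of them, Gm12250 (Irgb10). RefSeq lists it as protein coding and GENCODE M21 as a processed pseudogene. Its protein is an effector known to help break open bacteria in the cytosol, and the transcript averaged 3.02 ± 2.91 TPM in the Fadd/Mlkl knockouts, against 0.147 ± 0.131 TPM with FADD (SD, n = 3 each; log2 change 4.51, SE 0.965, adjusted p = 0.0454). The median log2 change of the 11 was 3.20 without FADD and 0.65 without caspase-8, where none was called and none had an unadjusted p under 0.05 (DESeq2 called 0). Without FADD, 9 of the 11 had an unadjusted p under 0.05, against 10.3% of all genes in either direction, and DESeq2 called 5, against 1.37%. The Gm12250 call did not hold with replicate numbers as a block within each line (log2 change 4.09, adjusted p = 0.119). With 1 library left out its log2 change ran from 3.27 without Fadd/Mlkl knockout replicate 1 (adjusted p = 0.152) to 5.26 without FADD put-back replicate 2 (adjusted p = 0.107), and the call held in 1 of 12 such fits, the one without Casp8/Mlkl knockout replicate 1 (adjusted p = 0.0431). Gm12250 itself had a log2 change of 1.10 without caspase-8 (SE 1.07, adjusted p = 0.999), and the difference between the changes was 3.41 (SE 1.44, adjusted p = 0.610). Irgq, a quiescent relative, had 2.21 ± 0.336 TPM in the Fadd/Mlkl knockouts and 2.47 ± 0.344 TPM with FADD (log2 change -0.05, adjusted p = 1.00).

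The guanylate-binding proteins are larger interferon-induced GTPases that act with the immunity-related GTPases at pathogen vacuoles. Of 11 genes, 8 were tested, and edgeR called 0 in either line. In each line 7 had an unadjusted p under 0.05. Over all genes that share was 10.3% without FADD and 5.67% without caspase-8, in either direction. DESeq2 called 3 higher in each line, against 1.37% and 0.809% of all genes. The median log2 change of the 8 was 3.05 without FADD and 2.84 without caspase-8. Gbp3 averaged 28.9 ± 26.8 TPM in the Fadd/Mlkl knockouts, against 5.40 ± 3.67 TPM with FADD (log2 change 2.62, adjusted p = 0.283), and 3.35 ± 2.21 TPM in the Casp8/Mlkl knockouts, against 0.487 ± 0.438 TPM with caspase-8 (log2 change 2.80, adjusted p = 0.675).

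Interferon ligand transcripts were at or near 0 counts in most libraries. Of 10 ligand genes, none passed the low-count filter and 8 had no counts in any library, Ifng among them. Ifnb1, which encodes interferon beta, had 35, 2 and 2 counts in the Fadd/Mlkl knockouts, against 0, 1 and 0 with FADD, and 0, 1 and 0 in the Casp8/Mlkl knockouts, against 1, 0 and 0 with caspase-8. The library with 35 counts was Fadd/Mlkl knockout replicate 1, the library with the highest GTPase levels. Among 7 receptor and JAK kinase genes, edgeR and DESeq2 called none in either line. An unadjusted p under 0.05 was seen for 0 without FADD, against 10.3% of all genes, and for 1 without caspase-8, against 5.67%. The median log2 change was 0.089 without FADD and 0.14 without caspase-8. Ifngr1, a chain of the interferon gamma receptor, averaged 25.9 ± 4.59 TPM in the Fadd/Mlkl knockouts and 22.5 ± 1.71 TPM with FADD.

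Among 8 transcription factor genes of the interferon response, edgeR called 0 in either line. Without FADD 4 had an unadjusted p under 0.05, against 10.3% of all genes, and without caspase-8 3 had, against 5.67%. DESeq2 called 1 higher in each line, against 1.37% without FADD and 0.809% without caspase-8. These were Irf7 without FADD (log2 change 3.22 by edgeR, DESeq2 adjusted p = 0.00686) and Nlrc5 without caspase-8 (3.09, DESeq2 adjusted p = 0.0347). The median log2 change of the 8 was 1.62 without FADD and 1.01 without caspase-8. Irf1, an activator of many interferon gamma targets, averaged 53.6 ± 37.9 TPM in the Fadd/Mlkl knockouts, against 32.9 ± 5.75 TPM with FADD (log2 change 0.75, adjusted p = 0.533). Of 5 feedback genes edgeR called 0 in either line, and 1 had an unadjusted p under 0.05 in each. DESeq2 called 0 without FADD and 1 without caspase-8, Usp18 (DESeq2 adjusted p = 0.00736), beside the same shares of all genes.

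Genes for partners of these GTPases at vacuoles were not called within either line. Between the knockouts edgeR called Gabarapl2 (adjusted p = 0.0473) and Trim21 (adjusted p = 0.0477) higher in the Fadd/Mlkl cells. Between the put-back groups it called Gabarapl2 higher (adjusted p = 0.0308) and Tax1bp1 lower (adjusted p = 0.0449) with FADD. Over all genes edgeR called 1718 of 16396 between the knockouts and 1039 of 16396 between the put-back groups. Of 10 genes for ATG8 proteins and the machinery that attaches them to membranes, which directs the GTPases to vacuoles, edgeR and DESeq2 called 0 in either line and none had an unadjusted p under 0.05. Their median log2 change was -0.032 without FADD and -0.013 without caspase-8. Gabarap, the most abundant ATG8 gene of the list, averaged 116 ± 32.7 TPM in the Fadd/Mlkl knockouts and 122 ± 9.71 TPM with FADD (log2 change 0.036, adjusted p = 1.00). Of 6 ubiquitin ligase and adaptor genes, edgeR and DESeq2 called 0 in either line. Unadjusted p was under 0.05 for 2 without FADD, against 10.3% of all genes, and for 1 without caspase-8, against 5.67%. Rnf213, a giant ubiquitin ligase, averaged 30.9 ± 20.8 TPM in the Fadd/Mlkl knockouts, against 14.0 ± 5.42 TPM with FADD (log2 change 1.25, adjusted p = 0.424). Sqstm1, the adaptor p62, averaged 113 ± 25.1 TPM in the Fadd/Mlkl knockouts and 142 ± 24.8 TPM with FADD (log2 change -0.19, adjusted p = 0.916), and Tax1bp1, another such adaptor, 23.9 ± 3.66 TPM in the knockouts and 25.3 ± 0.779 TPM with FADD (log2 change 0.039, adjusted p = 1.00).

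**Figure D5:**
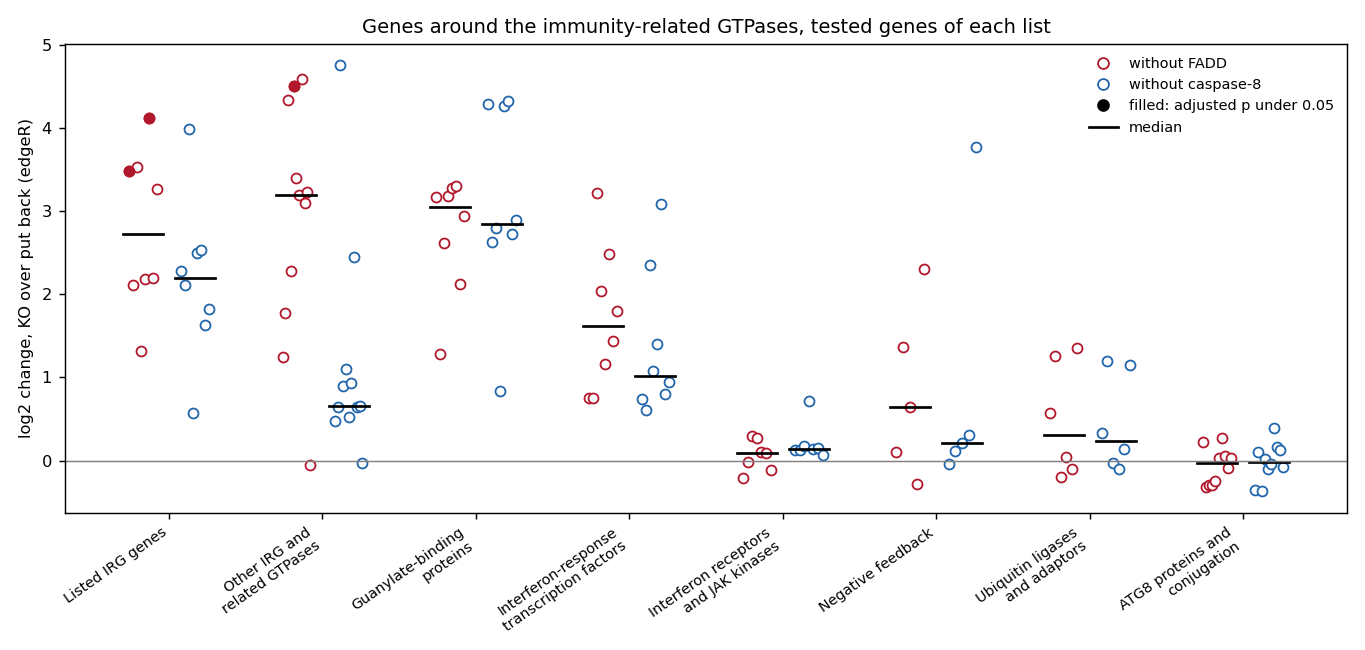
log2 change, knockout over put back, of each tested gene in the lists around the 8 genes, for the Fadd line (red) and the Casp8 line (blue), with the median of each list as a bar. Filled points are the calls (Ifi47, Olfr56 and Gm12250 without FADD), and the receptor and ATG8 lists lie near 0 in both lines.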

How the data were processed

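Stranded total RNA libraries were sequenced as paired 100-cycle reads, per the labels' protocols. Per the same protocols, reads were trimmed with Trim Galore, aligned to mm10 with STAR and counted with RSEM on GENCODE M22. The submitters' processing notes also give Trim Galore 0.5.0 and STAR 2.7.5a. The deposited files hold RSEM expected counts per gene with TPM and FPKM by the authors. FPKM was not used here, nor was a table of endogenous retrovirus reading frames. The 92 spike-in rows held 0 counts and were left out. Positions come from GENCODE M21, sequences from RefSeq.

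Expected counts (96.05% of those above 0 were whole) were rounded and tested over all 12 libraries with edgeR 4.0.16 in R 4.3.3 (filterByExpr with a minimum count of 10, TMM, quasi-likelihood test, Benjamini-Hochberg adjustment over 16396 genes, threshold 0.05). Adjusted p-values in the text are from edgeR unless DESeq2 1.42.0 or limma 3.58.1 is named, and intervals are 95%. TPM gives levels, which can be compared between genes; no test was made on shares or ratios. P-values measure the spread between cultures of a line. Analyses were tested on simulated data.

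Over all genes tested, same-numbered libraries deviated together within lines (r of 0.391 to 0.660 in the Fadd line, 0.127 to 0.305 in the Casp8 line). They also did so between the put-back groups (0.161 to 0.317), but not between the knockouts (-0.371 to 0.0711). Blocked values are therefore given within lines and between the put-back groups. The listed genes differed: their median deviations had opposite signs in same-numbered libraries of each line. For replicate 1 these medians were 1.12 (knockout) and -1.14 (put back) in the Fadd line. In the Casp8 line they were -2.02 and 0.35. The genes and lists were chosen with earlier results of these data known. Named in each list are genes that edgeR called within a line, or otherwise genes among its most abundant. For the transcription factor and feedback genes the DESeq2 calls are named too, and for the feedback genes only these. List genes that edgeR called between the knockouts or between the put-back groups are not all named.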

Additional observations from a re-analysis of the deposited data

How the results depend on the processing

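Each of the 8 changes (6 where pairs were summed) stayed above 0 under the 25 alternatives run within each line and the 24 run between knockouts and between put-back groups. Without FADD, 2 calls became 4 with DESeq2, 4 with limma on log2(TPM + 1), 1 with the 6 libraries compared alone, 1 with overlapping or copied pairs summed, 0 without both replicate 1 libraries of the Fadd line and 0 with replicate numbers as a block inside lines, and 0 to 3 with 1 library left out. Without caspase-8, 0 calls became 2 with DESeq2. Calls over all genes, in either direction, moved as well. Without FADD they went from 250 of 16396 to 697 of 16314 with DESeq2, and to 444 of 16396 with the block inside lines. They were 127 of 13033 with limma on log2(TPM + 1), 182 of 15462 with the 6 libraries and 248 of 16394 with pairs summed. Without both replicate 1 libraries of the Fadd line they were 111 of 16589, and with 1 library left out 103 of 16920 to 390 of 16956. Without caspase-8 they went from 1 of 16396 to 143 of 16314 with DESeq2. Between knockouts, 4 calls became 7 with DESeq2 and 2 with pairs summed, and 2 to 5 with 1 library left out. Between put-back groups, 1 call became 6 with DESeq2, 3 with no filter, 2 with 6 libraries and 2 without replicate 1 of the Fadd line. It became 5 without replicate 1 of the Casp8 line and 0 to 3 with 1 library left out. With limma-voom, either TPM pseudocount or the replicate block over 12 libraries it became 0. Over all genes, calls between put-back groups went from 1039 of 16396 to 2058 of 16314 with DESeq2. They were 3118 of 16864 without replicate 1 of the Casp8 line, and 301 of 16945 without caspase-8 put-back replicate 2. They were 1121 of 27519 with no filter, 797 of 15445 with 6 libraries and 638 of 16589 without replicate 1 of the Fadd line. With limma-voom they were 820 of 16396, with TPM + 1 528 of 13033 and with TPM + 0.1 627 of 13033. The block over 12 libraries gave 1534 of 16396. Between knockouts they went from 1718 of 16396 to 2753 of 16314 with DESeq2. They were 1716 of 16394 with pairs summed, and 829 of 16890 to 2558 of 16956 with 1 library left out. The difference between lines changed sign, never with a call, for Irgm1 (-0.019) and Tgtp1 (-0.64) without replicate 1 of the Fadd line. It did so for Irgm2 with limma-voom (0.31), log2(TPM + 1) (0.53), log2(TPM + 0.1) (0.22) and the block over 12 libraries (0.059), and for Iigp1 with voom (0.62), TPM + 1 (1.83) and TPM + 0.1 (1.53). It did so for Igtp with voom (0.47), no filter (0.011), TPM + 1 (0.51), TPM + 0.1 (0.32), the block over 12 libraries (0.13) and that within lines (0.13). With 1 library left out it ran from -1.19 to 0.16 for Irgm2, -0.93 to 0.38 for Igtp, -1.29 to 0.54 for Iigp1 and -0.20 to 1.25 for Tgtp1. The cause was not tested. Depth limits Iigp1, Tgtp1, Tgtp2 and Olfr56 in the Casp8 line, where libraries held as few as 4 Olfr56 counts.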
